A study of Mus musculus with 9 samples.

Results

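The genes described here encode heterogeneous nuclear ribonucleoproteins (hnRNPs) and serine/arginine-rich (SR) splicing factors. They were taken as every row named by the platform's probe table whose Entrez Gene number maps to a mouse symbol beginning with Hnrnp, or with Srsf and a digit, without pseudogenes. The rule used no measured value. It found 29 genes among 24011 named genes, 19 hnRNP genes and 10 SR genes. A further matching row, Hnrnpa1l2-ps2, was left out as a pseudogene. Rows that the probe table does not list have no symbol here and could not become members. Srsf7 was left out in this way, although a row of values carries its Entrez Gene number, so the SR counts lack it. Hnrnpa1 has no row among the values and was not analysed either.

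The series measured total RNA of large intestine on 9 Affymetrix Mouse Gene 2.0 ST arrays, and all mice were of the C57BL/6 strain. Each mouse carried a short hairpin RNA together with rtTA, the activator that switches the hairpin on in the presence of doxycycline. Control mice carried a hairpin against firefly luciferase (FLuc.1309/rtTA), a gene that mice do not have. The other groups, DHX9.1271/rtTA and DHX9.837/rtTA, carried hairpins against Dhx9 and are called DHX9-1271 and DHX9-837. Each group held 3 arrays. Induction was the same in all groups, controls included: 14 days of doxycycline (1 mg/ml, with 5% sucrose) in water, begun at 4 weeks of age. The labels name neither the promoter of the rtTA transgene, nor the sex of the mice, nor how many founder lines each hairpin had. They also leave unsaid whether the replicates of a group were different animals, and a p-value then covers only sample-to-sample spread, which may be technical.

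hnRNPs coat new transcripts in the nucleus, and many of them block the use of nearby splice sites. SR proteins join an RNA-binding domain to a tail rich in arginine and serine, and they favour the inclusion of exons to which they bind. Many genes of both families limit their own level by splicing in exons that send the transcript to decay. DHX9 is an RNA and DNA helicase that resolves double-stranded RNA and RNA-DNA hybrids. Each member is described by the level of 1 probe set, so transcripts with and without such exons were not separated.

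Markers of the labelled gut tissue were bright. The 15 absorptive colonocyte genes had a mean log2 level of 10.81 to 11.14 per array, and the 11 goblet cell genes one of 10.63 to 10.92. All of them passed the filter on low levels (a mean log2 level of at least 5.28 over the arrays). So did 16808 of the 24011 named genes, markers of other cell types among them, so passing it does not identify the tissue. Dhx9 checked the labels: DHX9-1271 left 49.6% of the control signal (limma adjusted p = 4.91e-05) and DHX9-837 left 48.8% (limma adjusted p = 2.05e-05). Array medians lay between 6.25 and 6.28 on the log2 scale. Precision is limited by having 3 arrays a group. Of the 28 members tested, 11 had their lowest value in control replicate 1, against 19.9% of all genes tested. The members' mean log2 level was 8.83 in that array and 8.86 to 8.91 in the other arrays. Calls of members that were lost without control replicate 1 are given with the adjusted p without it.

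Promoter sequence is shown for 3 members whose level differed from control, Srsf6 and Hnrnpab upward and Srsf5 downward. It lets the upstream DNA of genes that moved in opposite directions be set side by side. The runs are read 5′ to 3′ on the gene's strand from RefSeq, build GRCm38.p6, and stop before the first base that any RefSeq gene covers. They lie at chr2:162931358-162931507 (plus strand) for Srsf6, chr11:51606882-51607031 (minus strand) for Hnrnpab and chr12:80945400-80945494 (plus strand) for Srsf5. Capitals mark GC boxes (GGGCGG or its reverse complement CCGCCC) and CCAAT boxes (CCAAT or ATTGG), which do not overlap each other here.
Srsf6: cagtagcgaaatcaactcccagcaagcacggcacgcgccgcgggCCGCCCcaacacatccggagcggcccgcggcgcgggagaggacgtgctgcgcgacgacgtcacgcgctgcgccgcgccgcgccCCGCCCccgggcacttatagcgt
Hnrnpab: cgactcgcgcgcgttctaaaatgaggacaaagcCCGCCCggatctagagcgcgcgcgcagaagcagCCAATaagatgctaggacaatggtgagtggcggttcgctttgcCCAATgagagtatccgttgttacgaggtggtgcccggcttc
Srsf5: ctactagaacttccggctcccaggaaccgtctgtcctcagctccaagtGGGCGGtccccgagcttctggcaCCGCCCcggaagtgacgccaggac

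The 27 members with a promoter in the table were searched over 250 bases upstream of each listed start, on both strands. A GC box was present in 22 of the 27, against 35.4% of all 27025 genes in the table. The searched windows of most members were richer in G and C than the median of 52.4% over all genes. They ran from 48.4% (Hnrnph2) to 81.2% (Hnrnpa0). The part of base content in the GC box share was not tested. A CCAAT box was present in 15 members, against 37.5% of all genes. The E-box CACGTG was found in 3 members (Hnrnpa3, Hnrnpd and Hnrnpf; 6.9% of all genes), the TATA box TATAAA in 3 (Hnrnpm, Srsf2 and Srsf3; 14.3%), the NRF1 palindrome in Srsf11 (0.9%) and the cAMP response element TGACGTCA in 0 (1.8%). GC boxes stood upstream of all 6 searched members that differed from control, a motif that 22 of the 27 carried. Of these 6 only Srsf5 fell, since Hnrnpul2, which also fell, had no promoter to search. These matches describe letters and not binding.

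With both hairpins set against control, 5 of the 28 tested members were called higher and 2 lower by limma (Benjamini-Hochberg adjusted p under 0.05). Over all 16808 genes tested, 13.5% were called, 8.13% upward and 5.33% downward. That share depended on level: it was 6.91% of 24011 genes with no level filter. With the filter at the median gene it was 21.6% of 12006 genes, and these members kept their calls. All tested members lay above the array medians of 6.25 to 6.28 (lowest value 7.01, Hnrnpr), so 21.6% is the nearer comparison. The genes that rose were Srsf2, Srsf1, Srsf6, Hnrnpab and Hnrnpu, and those that fell were Srsf5 and Hnrnpul2. In all 7 the 6 knockdown arrays lay beyond the 3 control arrays, whereas in the other 21 they overlapped. Such separation was seen in 10.7% of all genes upward and 6.73% downward. Its share among genes as bright as the members was not computed. The changes were small: the rises ran from 10.6% (Srsf6) to 16.8% (Srsf2) while Srsf5 fell by 15.8% and Hnrnpul2 fell by 11.4%. With each array centred on its median, 2 members rose and 2 fell. Leaving out any 1 of the 9 arrays left 1 or 2 rises, and without control replicate 1 there was 1 rise and there were 0 falls, with 8.11% of all genes called.

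Among SR genes 3 of 9 rose and 1 fell, and among hnRNP genes 2 of 19 rose and 1 fell. In the main setting that was 44.4% of the SR genes and 15.8% of the hnRNP genes, against 13.5% of all genes tested. With the level filter at the median gene, 21.6% of genes were called. The median log2 fold was 0.098 for the SR genes and 0.037 for the hnRNP genes, against 0.0011 over all genes tested. Over the brighter genes kept by a filter at the median gene it was 0.015. The median size of the log2 fold without its sign was 0.079 for the members and 0.090 for all genes. By family it was 0.146 for the SR genes, above the value for all genes, and 0.057 for the hnRNP genes, below it. Whether the SR and hnRNP families differ was not tested.

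Srsf2 encodes SC35, an SR protein that binds exonic enhancers and promotes early spliceosome assembly. Its log2 level was 9.91, 9.93 and 9.87 in the control arrays, 10.08, 10.15 and 10.08 with DHX9-1271 and 10.16, 10.14 and 10.17 with DHX9-837. Every knockdown array lay above every control array. The log2 fold for both hairpins was 0.22 (SE 0.038, limma adjusted p = 0.0064), and over 19 alternatives the adjusted p ran from 0.00142 to 0.0244. The span of Srsf2 overlaps that of the neighbouring gene Mfsd11 in the RefSeq table. Strand and probe positions were not compared, so whether the overlap affects its level was not tested.

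Srsf1, which encodes the splicing factor ASF/SF2, had log2 levels of 9.04, 9.14 and 9.22 in control. They were 9.30, 9.40 and 9.32 with DHX9-1271 and 9.28, 9.28 and 9.29 with DHX9-837. The 3 DHX9-837 arrays were tightly grouped, just above the highest control array and below all DHX9-1271 arrays. The log2 fold was 0.18 (SE 0.049, limma adjusted p = 0.0440). It was called in 1 of the 9 fits that left out an array, the one without control replicate 3, and its adjusted p was 0.144 without control replicate 1.

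Srsf6 encodes another enhancer-binding SR protein. Control arrays read 8.73, 8.74 and 8.76, DHX9-1271 arrays 8.84, 8.93 and 8.85, and DHX9-837 arrays 8.88, 8.92 and 8.92 on the log2 scale. The control values spread little (SD 0.016), and all knockdown arrays lay above them. The log2 fold was 0.15 (SE 0.038, limma adjusted p = 0.0368), which was not called in any of the 9 fits that left out an array (adjusted p = 0.102 without control replicate 1).

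Hnrnpab encodes an hnRNP related to the product of Hnrnpd. Its log2 levels were 10.85, 10.81 and 10.82 in control, 10.96, 10.98 and 11.06 with DHX9-1271 and 10.95, 10.98 and 11.00 with DHX9-837. The 2 hairpin groups overlapped each other and lay above control. The log2 fold was 0.16 (SE 0.039, limma adjusted p = 0.0275), called in 2 of 9 fits that left out an array, with adjusted p from 0.00713 to 0.0678 over 19 alternatives and 0.0575 without control replicate 1. Its span overlaps Phykpl in the RefSeq table.

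Hnrnpu encodes hnRNP U, also called scaffold attachment factor A, which binds nuclear RNA and chromatin. It measured 9.99, 10.10 and 10.05 in control, 10.13, 10.16 and 10.16 with DHX9-1271 and 10.28, 10.25 and 10.19 with DHX9-837. All DHX9-837 arrays lay above all DHX9-1271 arrays, which lay above control. The log2 fold for both hairpins was 0.15 (SE 0.041, limma adjusted p = 0.0438), called in 2 of 9 fits that left out an array, and its adjusted p was 0.141 without control replicate 1. Its span overlaps Cox20 in the RefSeq table.

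Srsf5 encodes an SR protein known as SRp40. Its log2 level was 9.33, 9.13 and 9.22 in control, 9.04, 9.10 and 9.12 with DHX9-1271 and 8.90, 8.78 and 8.91 with DHX9-837. All DHX9-837 arrays were below all DHX9-1271 arrays, and both groups were below control. The log2 fold for both hairpins was -0.25 (SE 0.054, limma adjusted p = 0.0181), and without control replicate 1 the adjusted p was 0.0647.

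Hnrnpul2 encodes an hnRNP U-like protein with a known part in the response to DNA breaks. It read 9.45, 9.42 and 9.40 in control, 9.36, 9.33 and 9.35 with DHX9-1271 and 9.15, 9.11 and 9.19 with DHX9-837. The groups did not overlap, and DHX9-837 was lowest. The log2 fold for both hairpins was -0.17 (SE 0.037, limma adjusted p = 0.0160), and without control replicate 1 the adjusted p was 0.0580. Its paralogue Hnrnpul1 was not called (log2 fold 0.057, limma adjusted p = 0.469).

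**Figure D1:**
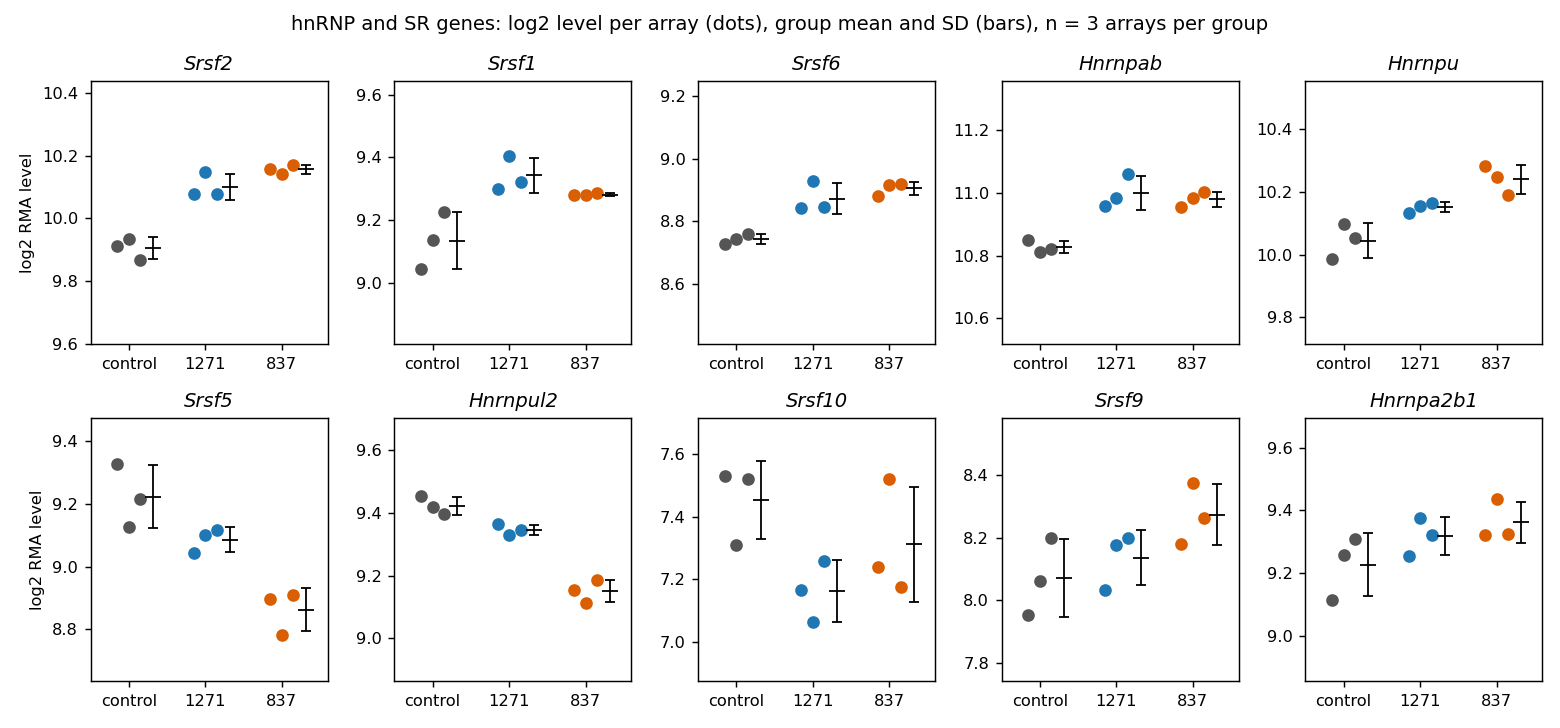
Log2 RMA level (vertical axis, the same span of 0.84 in each panel) of 10 members in each array, with control, DHX9-1271 (1271) and DHX9-837 (837) along the horizontal axis; dots are arrays and bars are the mean and SD of 3 arrays. In the first 7 panels no knockdown array overlaps the controls, upward for Srsf2, Srsf1, Srsf6, Hnrnpab and Hnrnpu and downward for Srsf5 and Hnrnpul2, while Srsf10, Srsf9 and Hnrnpa2b1 overlap.

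Of the members not called, Srsf10, Srsf9 and Hnrnpa2b1 had the largest log2 folds. Srsf10, whose product represses splicing when it loses its phosphates, read 7.53, 7.31 and 7.52 in control, 7.17, 7.06 and 7.26 with DHX9-1271 and 7.24, 7.52 and 7.18 with DHX9-837. The DHX9-1271 arrays lay below control, but DHX9-837 replicate 2 lay within the control range. The log2 fold was -0.22 (SE 0.088, limma adjusted p = 0.142), and without DHX9-837 replicate 2 the adjusted p was 0.0503.

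Srsf9 read 7.95, 8.06 and 8.20 in control, 8.03, 8.18 and 8.20 with DHX9-1271 and 8.18, 8.37 and 8.26 with DHX9-837. The groups overlapped (log2 fold 0.13, SE 0.069, limma adjusted p = 0.242). Hnrnpa2b1, whose product sorts and processes RNA in the nucleus and cytoplasm, read 9.11, 9.26 and 9.31 in control, 9.25, 9.37 and 9.32 with DHX9-1271 and 9.32, 9.44 and 9.32 with DHX9-837. Its knockdown and control arrays overlapped too (log2 fold 0.11, SE 0.056, limma adjusted p = 0.227).

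None of the other SR genes was called for both hairpins. Srsf3, whose product also links splicing to mRNA export, had a log2 fold of 0.098, Srsf4 one of 0.064 and Srsf11 one of -0.039. Srsf12 had a mean log2 level of 4.65 in control, 4.61 with DHX9-1271 and 4.71 with DHX9-837. These lay below the filter, and it was not tested.

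The G-tract binding hnRNPs included no called gene: Hnrnpf had a log2 fold of 0.082, Hnrnph1 of 0.013, Hnrnph2 of -0.024 and Hnrnph3 of -0.076. Hnrnpd and Hnrnpdl, whose products bind AU-rich elements, had log2 folds of 0.10 and -0.039. Both lie on chromosome 5, and 1 protein-coding gene has its start coordinate between theirs. Hnrnpl, which encodes a CA-repeat binding protein, and its paralogue Hnrnpll, known for splicing of Cd45 in lymphocytes, had log2 folds of 0.037 and 0.0082. Hnrnpll ranged from 7.76 to 8.15 within the control arrays alone, which span all 6 knockdown arrays.

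Hnrnpk, which encodes a C-tract binding protein, had a log2 fold of -0.012 (95% interval -0.15 to 0.13). Hnrnpc, whose product binds U tracts, had one of 0.067, Hnrnpm one of 0.10 and Hnrnpa3 one of 0.054. Hnrnpa0 (-0.026) and Hnrnpr (-0.024) were the remaining genes of the family. Over the 21 members not called, the 95% intervals reached from -0.41 (Srsf10) to 0.29 (Srsf9) on the log2 scale, so changes of that size were not excluded for those genes. In this comparison 0 members passed limma's threshold together with a 1.5-fold limit, while 10 had an unadjusted p under 0.05 (29.0% of all genes did).

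**Figure D2:**
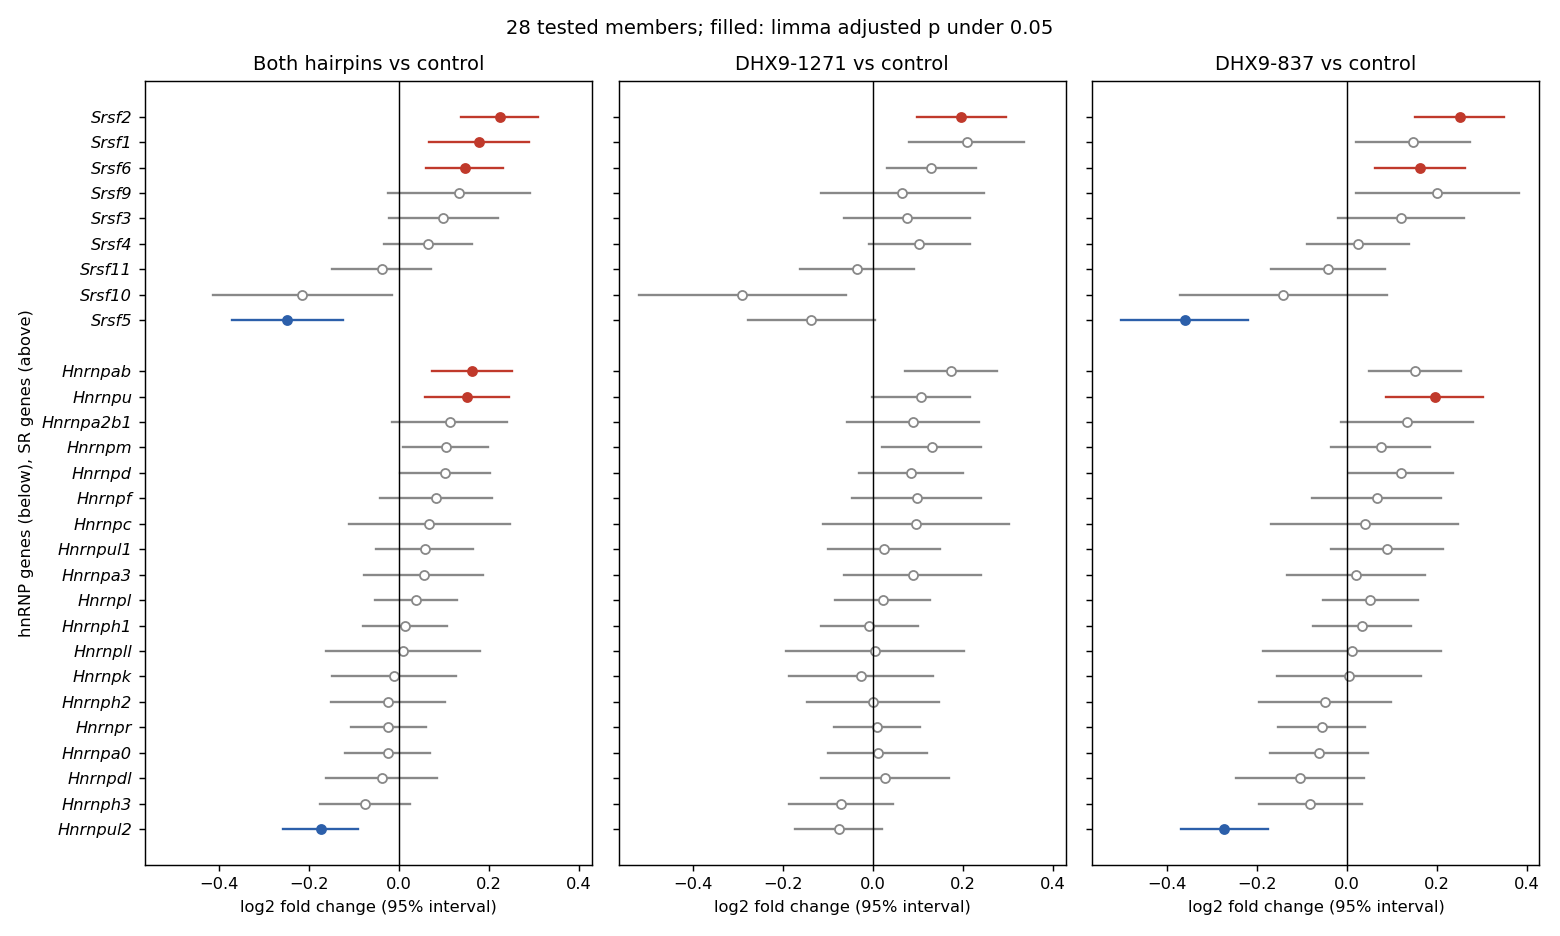
Log2 fold change (horizontal axis) with its 95% interval for the 28 tested members, hnRNP genes below and SR genes above, in 3 comparisons with control; filled red points rose, filled blue points fell, and open grey points were not called by limma. Both hairpins together called 5 members upward and 2 downward, DHX9-1271 called Srsf2 alone, and DHX9-837 called Srsf2, Srsf6 and Hnrnpu upward and Srsf5 and Hnrnpul2 downward.

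DHX9-1271 alone called Srsf2 and no other member (1 of 28, with 4.41% of all genes called, 2.83% upward and 1.58% downward). With the level filter at the median gene, 8.1% of genes were called, and Srsf1 and Hnrnpab were called beside Srsf2. The log2 fold of Srsf2 was 0.20 (SE 0.044, limma adjusted p = 0.0427), or 14.6% above control. That call was lost in each of the 9 fits that left out an array, with an adjusted p of 0.0920 without control replicate 1 and up to 0.147 without DHX9-1271 replicate 2. Srsf1 had a log2 fold of 0.21 (limma adjusted p = 0.0782), Hnrnpab one of 0.17 (limma adjusted p = 0.0711) and Srsf10 one of -0.29 (limma adjusted p = 0.151). An unadjusted p under 0.05 was reached by 6 members, against 20.5% of all genes.

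DHX9-837 alone called 3 members upward and 2 downward, and 15.6% of all genes (8.67% upward and 6.91% downward). With the level filter at the median gene, 24.6% of genes were called. Srsf2 rose by 19.0% (log2 fold 0.25, SE 0.044, limma adjusted p = 0.0061). Hnrnpu rose by 14.5% (log2 fold 0.20, SE 0.048, limma adjusted p = 0.0254) and Srsf6 by 11.9% (log2 fold 0.16, SE 0.044, limma adjusted p = 0.0372). Srsf5 fell by 22.1% (log2 fold -0.36, SE 0.062, limma adjusted p = 0.0061) and Hnrnpul2 fell by 17.2% (log2 fold -0.27, SE 0.043, limma adjusted p = 0.0037). Srsf2, Srsf5 and Hnrnpul2 were called for DHX9-837 in all 19 alternatives that set no fold limit. Hnrnpu kept its call in 5 of 9 fits that left out an array (adjusted p = 0.0706 without control replicate 1, 0.0534 without control replicate 3, 0.0780 without DHX9-837 replicate 1 and 0.0716 without DHX9-837 replicate 2). Srsf6 kept its call in 1 of the 9, without DHX9-1271 replicate 2 (adjusted p = 0.0870 without control replicate 1 and up to 0.0984, without DHX9-837 replicate 2).

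**Figure D3:**
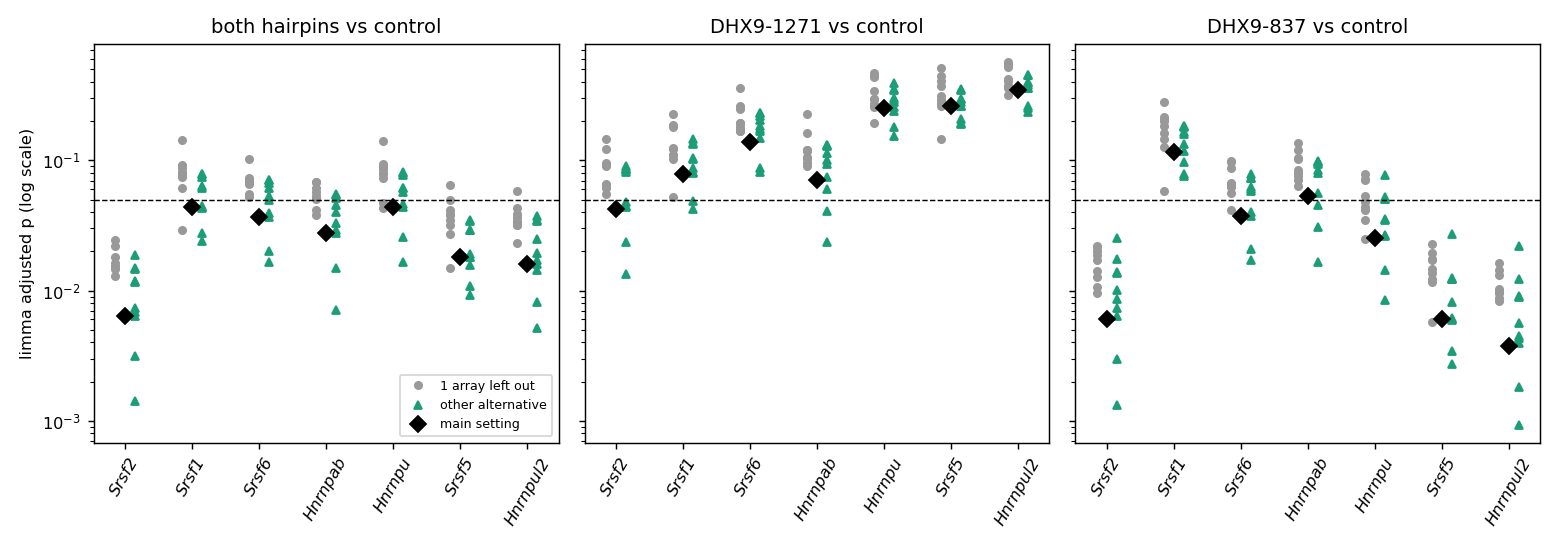
Limma adjusted p (vertical axis, log scale) of the 7 called members in 3 comparisons with control; black diamonds are the main setting, grey dots the 9 fits without 1 array, green triangles the other alternatives without a fold limit, and the dashed line marks 0.05. Srsf2 stays under the line in both the first and the last panel, Srsf5 and Hnrnpul2 stay under it with DHX9-837, and in the first panel all genes but Srsf2 have points on both sides of it, Srsf5 and Hnrnpul2 with 1 point each above it.

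The comparisons of each hairpin with control share the same 3 control arrays, so their values are given side by side and the hairpins were compared directly. Between DHX9-837 and DHX9-1271, 0 of 28 members were called by limma, and 1.9% of all genes were (0.696% upward and 1.21% downward). Hnrnpul2 and Srsf5 were the 2 members with an unadjusted p under 0.05, a level that 14.3% of all genes reached. Hnrnpul2 was lower with DHX9-837 by a log2 difference of -0.20 (95% interval -0.29 to -0.099, limma adjusted p = 0.0593), and its 3 DHX9-837 arrays lay below its 3 DHX9-1271 arrays. Srsf5 differed by -0.22 (95% interval -0.36 to -0.082, limma adjusted p = 0.126). All DHX9-837 arrays lay above all DHX9-1271 arrays in 1 of the 28 members (Hnrnpu). They lay below them in 6 (Hnrnpul2, Srsf5, Srsf1, Hnrnpdl, Hnrnpm and Hnrnpr). The share of all genes separated in this way was not computed, so these counts have no background. The hairpin difference of Srsf2 was 0.055 (95% interval -0.044 to 0.15) and that of Hnrnpu 0.089 (95% interval -0.019 to 0.20). These intervals do not show that the hairpins act alike. Of the smooth muscle markers, 10 of 10 had a lower mean level with DHX9-837 than with DHX9-1271, with a median log2 difference of -0.21, 5 at an unadjusted p under 0.05 and 0 called by limma. Other marker lists differed between the hairpins too. With DHX9-837, 10 of 11 macrophage and granulocyte genes were higher and 13 of 14 T and NK cell genes lower, with 0 called in either list. Of 15 absorptive colonocyte genes 3 were called lower, though 8 had a difference above 0. Among enteric neuron and glia genes 1 of 8 was called lower, and among general epithelial genes 1 of 11 higher. The part of any of these markers in the hairpin differences of Srsf5 and Hnrnpul2 was not tested.

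Other splicing genes were taken from 5 lists, in the comparison of both hairpins with control, in which 0 of their genes were called lower. Over all genes tested, 8.13% were called higher and 5.33% lower. With the level filter at the median gene, 21.6% of 12006 genes were called in either direction. At that filter 4 of 14 hnRNP proteins under other symbols, 2 of 20 SR-like proteins and 2 of 12 kinases and transport receptors rose. So did 8 of 23 other splicing regulators and 14 of 51 core spliceosome genes. With DHX9-837 alone, Mbnl2 and Luc7l2 fell (named after their values were seen). hnRNP proteins under other symbols had 3 of 14 higher and 0 lower, with a median log2 fold of 0.086. The 3 became 1 without control replicate 1. Ptbp1, which encodes the polypyrimidine tract binding repressor, rose by 0.28 on the log2 scale (SE 0.043, limma adjusted p = 0.0039), and it was called in all 19 alternatives. Taf15, which encodes an RNA-binding protein, rose by 0.24 (limma adjusted p = 0.0186, or 0.0700 without control replicate 1). Syncrip, the gene of hnRNP Q, rose by 0.21 (limma adjusted p = 0.0212, or 0.0584 without control replicate 1 and 0.0702 without control replicate 3).

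Core spliceosome genes had 8 of 52 higher and 0 lower, with a median log2 fold of 0.10. The 8 became 4 without control replicate 1 or DHX9-1271 replicate 3, 6 without control replicate 2 or DHX9-837 replicate 1, and 5 without any other single array. Sf3a1 (0.27) and Sf3a2 (0.24), subunits of the U2 snRNP, and Txnl4a (0.24), of the tri-snRNP, rose on the log2 scale and were called in all 19 alternatives. Lsm2, which binds U6 snRNA, rose by 0.21 (limma adjusted p = 0.0185, or 0.0705 without control replicate 1 and 0.0533 without control replicate 3). Other splicing regulators had 6 of 33 higher and 0 lower (median 0.066), and 4 to 6 with 1 array left out. Rbm5 rose by 0.38 (SE 0.051, limma adjusted p = 0.0024), and it was called with DHX9-1271 alone too (limma adjusted p = 0.0092), as was Sf3a1 (limma adjusted p = 0.0483). The muscleblind gene Mbnl1 (0.23) and the CELF genes Celf1 (0.20) and Celf2 (0.36) also rose, Celf2 with an adjusted p of 0.0742 without control replicate 1.

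SR protein kinases and transport receptors had 2 of 13 higher and 0 lower (median 0.016). The 2 became 0 without control replicate 1 or DHX9-1271 replicate 3, stayed 2 without DHX9-1271 replicate 1 or DHX9-837 replicate 1, and became 1 without any other single array. Srpk1, whose product phosphorylates SR proteins in the cytoplasm, rose by 0.15 (limma adjusted p = 0.0221, or 0.0704 without control replicate 1 and 0.0518 without DHX9-1271 replicate 3). Tnpo1, the import receptor of several hnRNPs, rose by 0.24 (limma adjusted p = 0.0384), called in 2 of 9 fits that left out an array, with adjusted p up to 0.115 without control replicate 1. SR-like and RS domain proteins had 1 of 20 higher and 0 lower (median 0.045), Scaf11 with a log2 fold of 0.18 (limma adjusted p = 0.0427, or 0.143 without control replicate 1), called in 1 of 9 fits that left out an array.

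**Figure D4:**
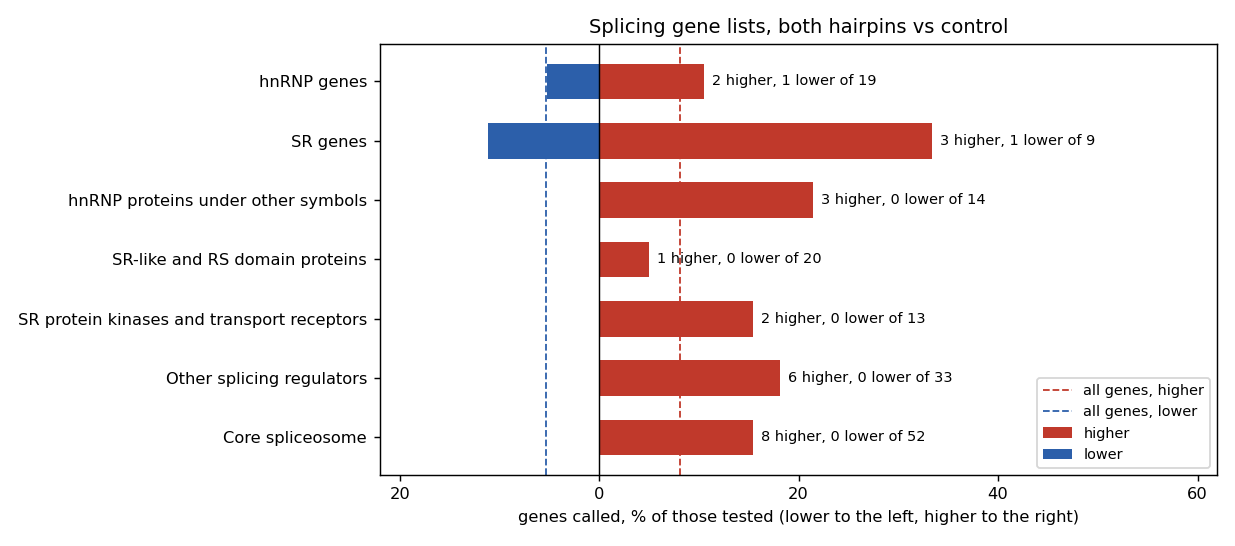
Percent of tested genes called by limma in the comparison of both hairpins with control (horizontal axis, higher to the right and lower to the left) for the 2 families described and 5 other splicing lists; dashed lines mark the percent over all 16808 genes tested, 8.13 upward and 5.33 downward. Falls appear in the hnRNP and SR families, with 1 gene each, and in none of the 5 other lists. The dashed lines are not matched for level: with the filter at the median gene, 21.6% of 12006 genes were called in either direction.

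Markers of proliferation and of several cell types moved in the same comparison. Of 29 cell cycle genes, 19 rose and 0 fell. The list's mean log2 level was 7.54 to 7.82 in control, 7.95 to 8.01 with DHX9-1271 and 7.98 to 8.11 with DHX9-837. B and plasma cell genes had 5 of 17 up and 0 down, with means of 7.27 to 7.37, 7.41 to 7.79 and 7.49 to 7.77 in the same order. Macrophage and granulocyte genes had 5 of 11 up and 1 down (7.47 to 7.50, 7.62 to 7.70 and 7.74 to 7.80), with S100a8, S100a9 and Ly6g below the level filter. Endothelial genes had 6 of 13 up and 0 down (7.36 to 7.42, 7.51 to 7.60 and 7.50 to 7.55), and fibroblast and matrix genes 6 of 13 up and 0 down (9.01 to 9.28, 9.37 to 9.45 and 9.30 to 9.38).

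Absorptive colonocyte genes had 0 of 15 up and 5 down, with list means of 11.04 to 11.14 in control, 10.84 to 10.96 with DHX9-1271 and 10.81 to 10.94 with DHX9-837. Goblet cell genes had 3 of 11 up and 1 down (10.63 to 10.90, 10.89 to 10.92 and 10.85 to 10.86), and general epithelial genes 3 of 11 up and 1 down (10.50 to 10.53, 10.55 to 10.61 and 10.57 to 10.63). T and NK cell genes had 2 of 14 up (Cd4 and Thy1, named after their values were seen) and 0 down, while 10 of the 14 had a log2 fold below 0 (median -0.11). Their list means were 6.76 to 6.93, 6.85 to 6.87 and 6.56 to 6.91. Enteric neuron and glia genes had 1 of 8 up and 0 down (6.29 to 6.50, 6.28 to 6.42 and 6.28 to 6.38), with Elavl4, Tubb3 and S100b below the filter. Smooth muscle genes had 0 of 10 called by limma, with 1 at an unadjusted p under 0.05 (10.17 to 10.33, 10.25 to 10.38 and 10.00 to 10.20). In RNA of a mixed tissue, a change in the number of cells of a type and a change in RNA per cell cannot be told apart. The part of these markers in the values of the hnRNP and SR genes was not tested.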

How the data were processed

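Levels were deposited as log2 values, for 24973 probe sets on 9 arrays. Per the submitters' processing notes, the authors used RMA in oligo 1.30.0 under R 3.1.1, which corrects background, quantile-normalizes and summarizes probes. No option, probe set definition or genome build is named in the labels. The quantile step hides a shift shared by most genes. The platform's probe table named 24015 probe sets by 1 symbol and 0 by several, and the 958 it does not list were unnamed here. The brightest probe set stood for each of 24011 symbols, and those under the 30th percentile of mean level (5.28) were left out.

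The 16808 genes left were fitted with limma 3.58.1 in R 4.3.3, with 3 group means over all 9 arrays and 4 contrasts (6 residual and 2.84 prior degrees of freedom). p-values were two-sided and adjusted by Benjamini and Hochberg over all genes tested, with calls at an adjusted p under 0.05. The fit was tested on simulated data with known 1.5-fold and 2-fold changes, which are larger than any member's change here. Full values were given for members called in any contrast and for the 3 largest folds not called in the pooled one. From each splicing list up to 4 called genes of smallest p were named. The members and lists were chosen with earlier results of these data known. Figures used matplotlib 3.10.9.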

Additional observations from a re-analysis of the deposited data

How the results depend on the processing

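The members called for both hairpins were 5 higher and 2 lower. The 5 rises became 1 with no level filter, 1 with all probe sets as features, 1 with the replicate block, 2 with arrays centred on their median and 2 with array weights. With a 1.5-fold limit, rises and falls were 0 in each comparison with control. The single rise with DHX9-1271 became 0 with no level filter, all probe sets as features, cyclic loess, the groups compared alone or the replicate block, and 3 with the level filter at the median gene or trend moderation. The 3 rises with DHX9-837 became 1 with no level filter, all probe sets as features, the groups compared alone or the replicate block. Between hairpins, 0 falls became 1 with the filter at the median gene, 1 with trend moderation and 2 with array weights. The cause was not tested, apart from the count of genes that a filter or probe set choice sets. Leaving out 1 array gave 1 to 2 rises and 0 to 2 falls for both hairpins, 0 to 0 rises with DHX9-1271, and 1 to 3 rises and 2 to 2 falls with DHX9-837. The low count of 0 falls came without control replicate 1. The members' other counts stayed within 1.5 times, and no called member changed direction in a comparison that called it. For both hairpins and no fold limit, rises ranged from 1 to 4 among hnRNP proteins under other symbols (main 3), 0 to 3 among SR-like proteins (1), 0 to 2 among kinases and transport receptors (2), 4 to 8 among other splicing regulators (6) and 4 to 14 in the core spliceosome (8). Genes called in all were 2263 for both hairpins and 741 for DHX9-1271, and 1363 and 341 without control replicate 1, or 1461 and 128 without DHX9-1271 replicate 3. Dhx9 was called in all alternatives for each comparison with control. Same-numbered arrays did not deviate together (correlations from -0.37 to 0.26), so the replicate number was not taken as a pairing, and the block left 1 rise and 2 falls for both hairpins. Signal over background is not given by these files, so its effect on the lower levels is unknown.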
